A study of Mus musculus with 6 samples.

Results

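Claudins and the other proteins of the tight junction close the space between neighbouring epithelial cells, and their RNA was compared between mouse induced pluripotent stem cells (iPSCs, body cells returned to pluripotency by reprogramming) with an intact or a deleted gene for the transcription factor serum response factor (Srf). The genes were the table's rows named Cldn followed only by digits, together with 14 listed genes of occludin, junctional adhesion molecules, scaffolds and apical polarity proteins. These gave 36 of the 24421 gene rows, 23 claudins and 13 others, and 23 of them (10 claudins and 13 others) had a mean of 10 or more counts over the libraries and are described. The listed gene Patj had no row of that name. RefSeq gives Inadl as its older symbol, and the Inadl row is given separately and is not counted among the members. One group, SRF KO, had the genotype SRFΔ/Δ, in which the conditional Srf allele is deleted, and the other, WT, had SRFf/f, the intact conditional allele. Both were cultured with serum, and each group had 3 bulk RNA sequencing libraries. The sources used here do not give the deleted exons or the method of deletion. They do not say either whether replicates were separate clones or separate cultures of 1 clone, so the p-values measure the spread between these libraries, which may be technical.

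Tight junctions form at the apical end of the lateral membrane. Claudins are membrane proteins with 4 transmembrane segments that pair across the gap between cells, and different family members seal the gap or form pores for ions. Occludin, tricellulin and Marveld3 share another membrane domain, and junctional adhesion molecules are immunoglobulin-like receptors. Inside the cell the zonula occludens scaffolds (Tjp genes) and cingulins tie these proteins to actin, and the Crumbs and Par complexes mark the apical side. Mouse pluripotent cells are epithelial in character, and the first embryonic epithelia, trophectoderm and primitive endoderm derivatives, build tight junctions too.

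Values by library are given in the order of replicates 1, 2 and 3 throughout. Srf itself was counted 113, 84 and 131 times in SRF KO against 1326, 765 and 1066 times in WT, which left 11.5% of the mean WT level (CPM). Totals were between 26321602 and 36680156 counts per library. In a principal component analysis WT replicate 2 stood apart from the other WT libraries on the second component, which held 10.4% of the variance, while the first held 76.2% and separated the groups. Of 14 listed markers of pluripotent cells, all were tested, and 1 was higher and 8 were lower in SRF KO. Over all genes tested, 42.4% passed (adjusted p under 0.05, edgeR), 21.2% as higher and 21.3% as lower, to be set beside each marker list. Pou5f1, which did not pass, stood at 773 ± 11.3 CPM (the count scaled to library size with TMM factors) in SRF KO and 818 ± 52.4 CPM in WT (n = 3, SD). Summed over its list, the level of pluripotent markers was 6497 to 6613 CPM in SRF KO and 7842 to 8391 CPM in WT. Extraembryonic endoderm markers summed to 3561 to 3822 and 447 to 475 CPM, with all 17 tested of 18 higher in SRF KO and Afp near 0 in every library. For fibroblast markers the sums were 1532 to 1866 and 743 to 865 CPM (14 of 14 higher), and for trophoblast markers 98.7 to 104 and 131 to 144 CPM (1 higher and 3 lower of 9 tested, with Elf5 near 0). The difference between the trophoblast sums lay mostly in Tfap2c, at 33.1 ± 1.89 CPM in SRF KO and 71.0 ± 5.33 in WT (n = 3, SD). The 1 higher trophoblast marker, Plet1, was at 19.0 ± 0.835 and 13.1 ± 0.221 CPM. The part of these cell types in the results that follow was not tested. In bulk RNA, fewer cells of a type and less RNA per cell cannot be told apart.

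The junction genes changed in both directions, as all genes tested did. Claudins Cldn3, Cldn4 and Cldn7, the scaffold Tjp3 and the Crumbs protein Crb3 fell in SRF KO to between 37.1% and 67.2% of the WT level, and Cgn and Jam2 to 75.8% and 74.6%. The relatives Cgnl1 and Jam3 and the polarity scaffold Pard3 were higher, while the main scaffold Tjp1, occludin and the claudins Cldn6 and Cldn12 did not pass the test. Of the 23 members tested, 5 were higher and 9 lower at an adjusted p under 0.05 (quasi-likelihood test of edgeR, Benjamini-Hochberg adjusted over all 15611 rows tested, as for all adjusted p-values here). Over all 14778 genes tested, 42.4% passed, 21.2% as higher and 21.3% as lower. The median log2 fold change (SRF KO over WT) was -0.08 over the members and -0.01 over all genes. The values of the groups did not overlap for 15 of the 23 members, against 52.7% of all genes. Only Cldn3 and Tjp3 fell by 1 or more on the log2 scale, where the share of all genes was 1.76%, and Cldn2 and Cldn15 rose by as much, where it was 5.53%. Those 2 claudins are among the 5 higher members, but they passed the filter on low counts only through SRF KO and could enter the test only by being higher there, so that their part of that count is read no further.

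**Figure D1:**
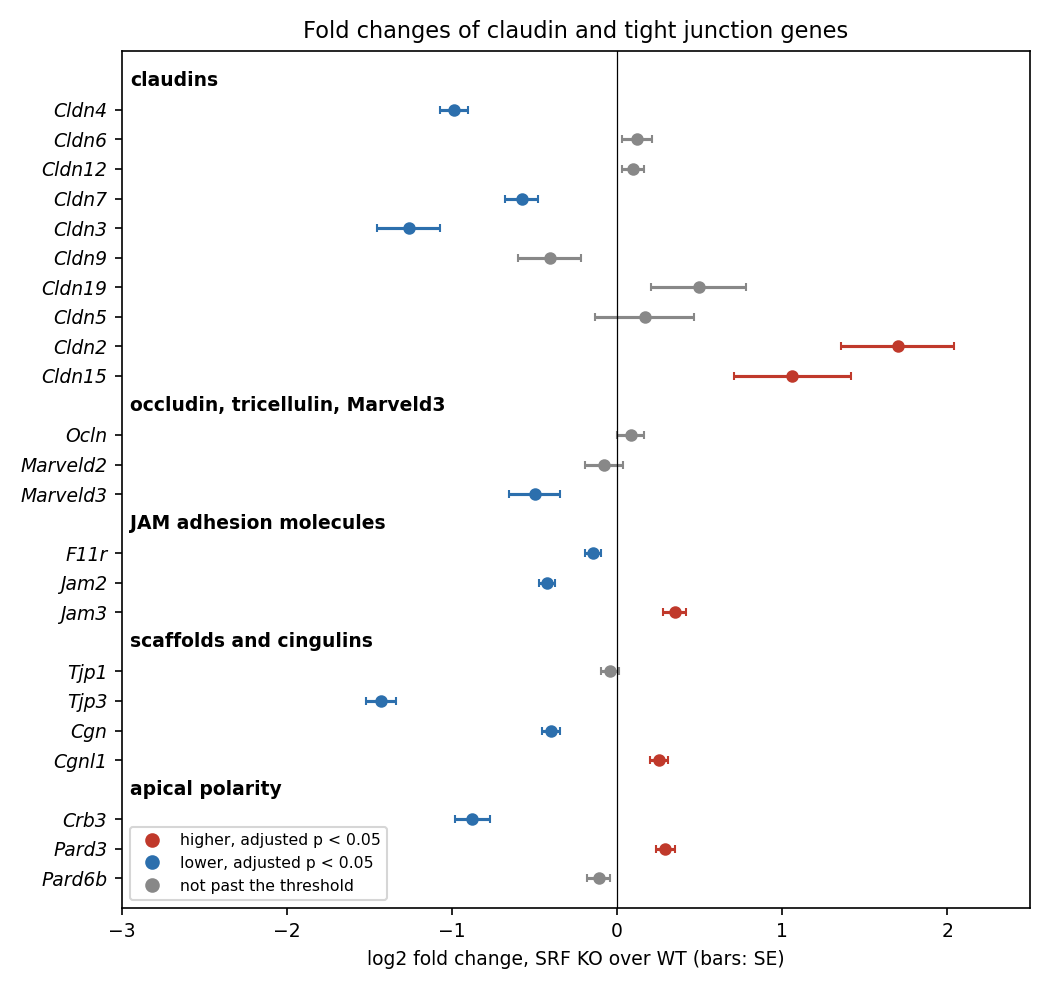
Log2 fold change of each member, SRF KO over WT, on the horizontal axis, with members grouped by role; points are fitted values, bars the SE and colours the call. Tjp3 lies farthest to the left at -1.43 and Cldn2 farthest to the right at 1.70, and Cldn4, Cldn3 and Cldn7 lie left of 0 while Cldn6 and Cldn12 lie close to it.

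Among the claudins, Cldn4, which tightens epithelia against ions, changed most in amount. It stood at 57.2, 57.5 and 57.6 CPM in the SRF KO libraries and 119, 96.2 and 127 CPM in the WT libraries. Every WT library was above every SRF KO library, and the SRF KO libraries were nearly equal. Cldn4 fell from 114 ± 16.0 to 57.4 ± 0.241 CPM (n = 3, SD), a log2 fold change of -0.99 (SE 0.09, adjusted p 3.7e-06). Cldn3, a sealing claudin whose gene neighbours that of Cldn4, was at 2.04, 1.89 and 2.21 CPM in the SRF KO libraries and 5.22, 3.54 and 5.93 CPM in the WT libraries. The groups did not overlap, although WT replicate 2 lay below the other WT libraries, and the log2 fold change was -1.26 (SE 0.19, adjusted p 2.6e-04). Cldn7, which binds the adhesion protein Epcam, stood at 14.3, 14.0 and 13.0 CPM in the SRF KO libraries and 21.9, 17.2 and 22.5 CPM in the WT libraries, again with WT replicate 2 the lowest WT library and no overlap. Its log2 fold change was -0.58 (SE 0.10, adjusted p 8.0e-04).

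Cldn6, a claudin typical of early embryonic epithelium, did not pass the test. It had 59.8, 56.8 and 53.8 CPM in the SRF KO libraries and 52.4, 44.5 and 59.6 CPM in the WT libraries, with WT replicate 3 among the SRF KO values, and a log2 fold change of 0.12 (SE 0.09, adjusted p 0.306). Without WT replicate 3 it passed, with a log2 fold change of 0.22 and an adjusted p of 0.0371. Cldn12 was at 38.0 ± 2.19 CPM in SRF KO against 35.5 ± 1.49 in WT (n = 3, SD), with overlapping groups and a log2 fold change of 0.10 (SE 0.06, adjusted p 0.257). Cldn9, which lies beside Cldn6, had 24, 26 and 29 counts in SRF KO and 51, 29 and 36 in WT. Its scaled levels did not overlap between groups, but it did not pass the test, at -0.41 (SE 0.19, adjusted p 0.111).

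The remaining claudins were close to the limit of detection. Cldn2, which forms pores for cations and water in kidney and gut, had 20, 13 and 15 counts in SRF KO against 6, 5 and 5 in the WT libraries, a log2 fold change of 1.70 (SE 0.34, adjusted p 0.002). Cldn15, another cation-pore claudin, had 17, 10 and 15 counts in SRF KO against 11, 4 and 7 in WT, with 1.06 (SE 0.35, adjusted p 0.0312). Neither reached the filter on low counts in WT. The call of Cldn15 was lost under DESeq2 (1.10, adjusted p 0.138) and when SRF KO replicate 1 (0.89) or 3 (1.05), or WT replicate 2 (0.87) or 3 (1.07), was left out. Cldn19 and Cldn5, known from kidney and from blood vessels, had at most 26 and 27 counts in any library and did not pass, at 0.50 (SE 0.29, adjusted p 0.195) and 0.17 (SE 0.30, adjusted p 0.689). The other 13 claudins had a mean under 10 counts, none passed the filter, and Cldn16, Cldn17, Cldn22 and Cldn24 were listed at 0 in every library. Cldn1, just outside that limit with a mean of 8.5, reached 14 counts in SRF KO and 8 in WT, and Cldn15 and Cldn2 were just inside it with a mean of 10.7 counts each. The upper limit behind a 0 is 3 counts, or 0.0818 to 0.114 CPM depending on the library, for counting error only.

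**Figure D2:**
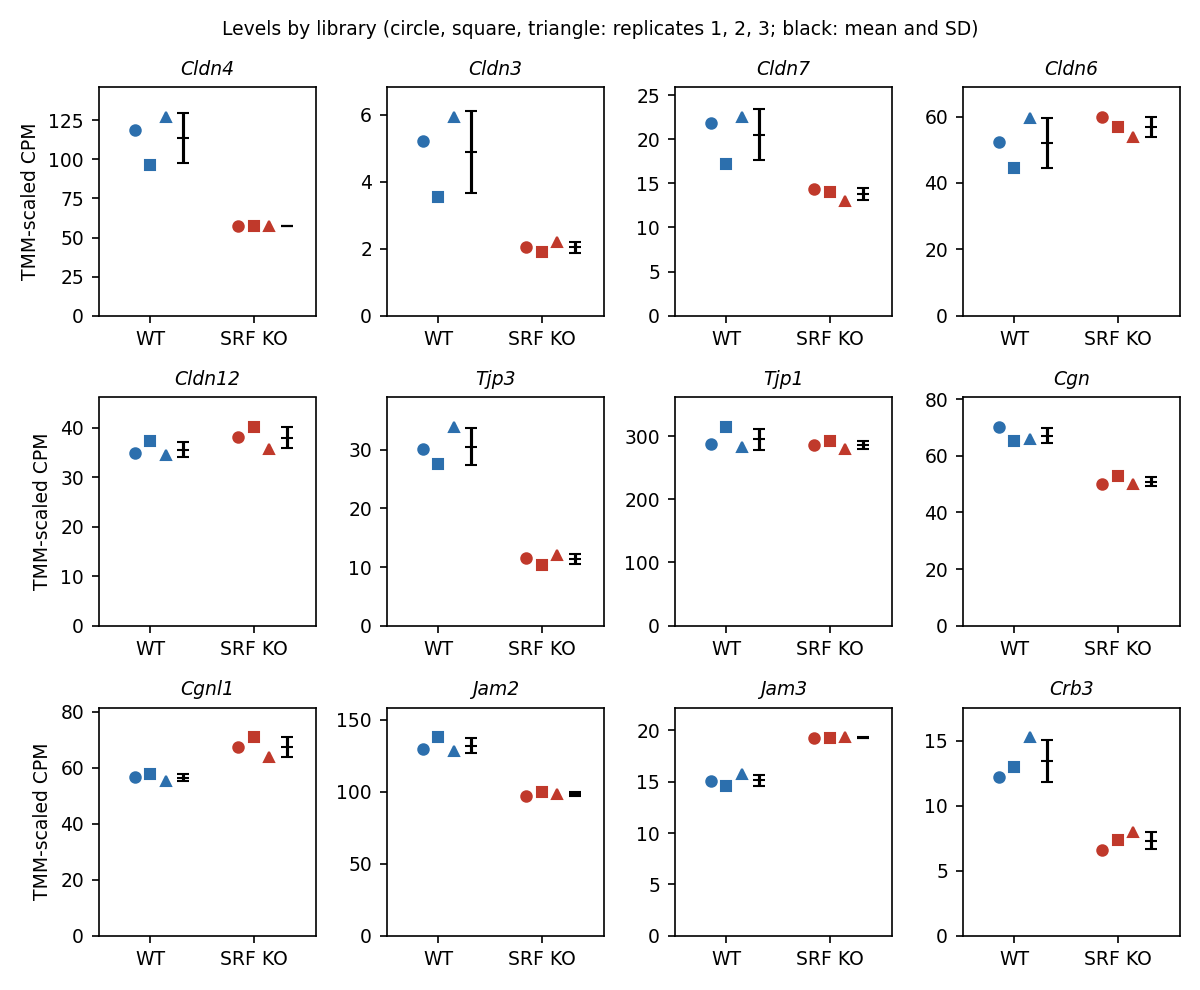
TMM-scaled CPM of 12 members in each library, with each panel starting at 0; symbols are replicates, and the black marks are the mean and SD. Cldn4, Cldn3, Cldn7, Tjp3, Cgn, Jam2 and Crb3 have all WT libraries above all SRF KO libraries, Cgnl1 and Jam3 the reverse, and Cldn6, Cldn12 and Tjp1 overlap.

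Dividing each level by exon length allowed claudins to be compared with each other. In WT, Cldn4 was the most abundant at 62.8 ± 8.79 CPM per kb of exon, followed by Cldn6 at 30.3 ± 4.39 (n = 3, SD). In SRF KO they were close, at 31.6 ± 0.133 for Cldn4 and 33.0 ± 1.74 for Cldn6, a difference within the SD of Cldn6 but not that of Cldn4. Cldn6 was above Cldn4 in SRF KO replicates 1 and 2 and just below it in replicate 3. As a share of all claudin RNA per length, Cldn4 went from 53.3% ± 0.707 in WT to 37.5% ± 1.06 in SRF KO and Cldn6 from 25.7% ± 0.689 to 39.1% ± 1.13. Cldn12 made up 7.25% ± 1.31 and 10.6% ± 0.496, Cldn7 8.95% ± 0.266 and 8.39% ± 0.222, and Cldn3 3.27% ± 0.426 and 1.93% ± 0.187 (WT and SRF KO, n = 3, SD). These shares depend on the summed level, and the levels of Cldn6 and Cldn12 themselves did not pass the test. The summed claudin level was 86.3, 84.6 and 82.2 CPM per kb in the SRF KO libraries against 121, 101 and 131 in the WT libraries. Without the division by length, the sums were 172 ± 4.71 CPM in SRF KO against 230.3 ± 26.2 in WT (n = 3, SD), a ratio of 0.748. All WT libraries were above all SRF KO libraries, and WT replicate 2 was the nearest to them.

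**Figure D3:**
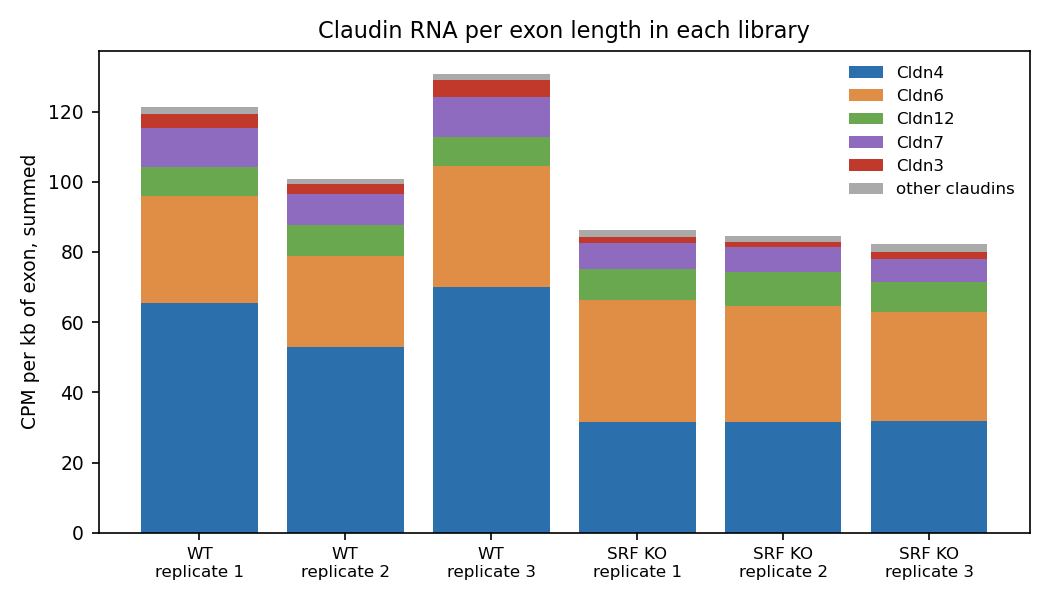
Claudin RNA in each library in CPM per kb of exon, stacked by gene; bars start at 0. The Cldn4 part is larger in every WT library (62.8 ± 8.79 CPM per kb) than in any SRF KO library (31.6 ± 0.133), while the Cldn6 part overlaps between the groups.

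Some claudin genes lie beside each other. In GRCm38, the build that the submitters' processing notes name as mm10, Cldn4 occupies chr5:134945119-134946934 on the minus strand and Cldn3 chr5:134986214-134987472 on the plus strand. Each has a single exon, 39279 bases and no protein-coding gene lie between them, and both fell. Cldn6 (chr17:23679249-23682446, plus strand) and Cldn9 (chr17:23682584-23684026, minus strand) face each other tail to tail across 137 bases, and neither passed the test. Cldn7 lies at chr11:69964779-69967885, Tjp3 at chr10:81273207-81291581 and Crb3 at chr17:57059105-57065918. The longest run of identical bases between transcripts of any 2 members was 37 bases, between Cldn6 and Cldn9, followed by 35 bases between Cldn3 and Cldn4, against reads of 150 bp. Of the exon bases of Tjp3, 40 are shared with Apba3, and of those of Cldn3, 40 with Wbscr25. Crb3 shares 14 with Dennd1c and Cldn19 shares 90 with Gm12927. All 995 exon bases of Cldn22 lie within exons of Wwc2 on the other strand, and the limit given for its 0 holds only if reads shared by both genes were counted. The counting rule for shared reads is not given in the sources used here.

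The promoters of the members that fell most and of Cldn12 were examined for the letters that known regulators bind. Each sequence is the 250 bases before a RefSeq start site (GRCm38.p6), 5′ to 3′ on the gene's strand. In the first 4, capitals mark CAGGTG or its reverse complement, the E-box form bound by Snail and Zeb repressors, and in Cldn12 they mark a CArG box, the site bound by SRF.
Cldn4, chr5:134946935-134947184, minus strand: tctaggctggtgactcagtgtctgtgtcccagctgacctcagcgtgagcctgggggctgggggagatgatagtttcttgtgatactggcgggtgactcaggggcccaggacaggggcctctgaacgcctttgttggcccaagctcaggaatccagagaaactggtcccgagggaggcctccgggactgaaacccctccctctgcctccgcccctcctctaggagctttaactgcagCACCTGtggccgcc
Cldn3, chr5:134985964-134986213, plus strand: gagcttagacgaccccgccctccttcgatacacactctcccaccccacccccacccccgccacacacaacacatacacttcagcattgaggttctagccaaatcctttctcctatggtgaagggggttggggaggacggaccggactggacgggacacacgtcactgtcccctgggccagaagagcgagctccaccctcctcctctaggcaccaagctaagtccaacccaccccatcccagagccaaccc
Tjp3, chr10:81291582-81291831, minus strand: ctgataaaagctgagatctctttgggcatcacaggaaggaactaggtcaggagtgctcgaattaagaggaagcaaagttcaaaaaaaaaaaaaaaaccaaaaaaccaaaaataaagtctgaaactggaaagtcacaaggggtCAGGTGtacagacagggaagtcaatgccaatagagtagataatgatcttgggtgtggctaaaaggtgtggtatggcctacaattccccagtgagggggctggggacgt
Crb3, chr17:57061951-57062200, plus strand: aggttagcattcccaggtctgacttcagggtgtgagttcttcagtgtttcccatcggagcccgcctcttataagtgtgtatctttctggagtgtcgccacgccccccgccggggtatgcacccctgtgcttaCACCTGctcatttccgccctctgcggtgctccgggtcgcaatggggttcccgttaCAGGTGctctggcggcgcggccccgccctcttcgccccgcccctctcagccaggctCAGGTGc
Cldn12, chr5:5514977-5515226, minus strand: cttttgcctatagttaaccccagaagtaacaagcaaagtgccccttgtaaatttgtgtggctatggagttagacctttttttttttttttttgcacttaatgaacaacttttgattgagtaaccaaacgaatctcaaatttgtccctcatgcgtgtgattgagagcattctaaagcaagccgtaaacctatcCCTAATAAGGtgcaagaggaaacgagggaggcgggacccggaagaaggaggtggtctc
CAGGTG began 14 bases before the start site in Cldn4 and 108 bases before it in Tjp3. In Crb3 it occurred 118, 63 and 7 bases before the start site, and this Cldn3 window did not hold it. RefSeq windows were found for 19 of the 23 members, 28 windows in all because some genes have several start sites. On either strand, CAGGTG was in a window of 5 of the 7 members that fell and had an entry (Cldn4, Cldn7, Crb3, F11r and Tjp3), of 1 of 4 that rose (Pard3) and of 3 of 8 that did not pass (Cldn6, Ocln and Pard6b). By window this was 7 of 10, 1 of 5 and 3 of 13, where 17.2% of 32851 promoter windows of the same length held it. Over all members, whatever their call, 11 of the 28 windows held it. The background was counted by window only, so the counts by member have no background beside them. Windows of a gene are not independent: those of Crb3 overlap and hold the same sites, and Tjp3 is counted by each of its windows. F11r is counted as fallen, although its call did not hold under most alternatives. The CArG box was found in Cldn12 only, in each of its 3 overlapping windows, and in 1.47% of all windows. AACNNGTT, a form of the site of Grainyhead-like factors, was in windows of Cgn and Cldn5 and in 3.64% of all. The motifs were searched separately on both strands, and a match shows the letters only.

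Of occludin and its 2 relatives, only Marveld3 passed the test. Occludin (Ocln) was at 13.4, 11.9 and 13.0 CPM in the SRF KO libraries and 11.7, 12.8 and 11.7 CPM in the WT libraries, with overlapping groups and a log2 fold change of 0.08 (SE 0.08, adjusted p 0.452). Marveld2, tricellulin, which sits where 3 cells meet, overlapped as well, at 4.14 ± 0.419 CPM in SRF KO against 4.36 ± 0.0735 in WT (n = 3, SD) and a log2 fold change of -0.08 (SE 0.12, adjusted p 0.628). Marveld3 stood at 2.49, 3.10 and 2.35 CPM in the SRF KO libraries and 3.98, 3.15 and 4.01 CPM in the WT libraries, with SRF KO replicate 2 just under WT replicate 2, and fell by 0.50 on the log2 scale (SE 0.15, adjusted p 0.0216). That call was lost under DESeq2 (-0.49, adjusted p 0.0540) and when SRF KO replicate 1 (-0.46), SRF KO replicate 3 (-0.42), WT replicate 1 (-0.44) or WT replicate 3 (-0.45) was left out.

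The junctional adhesion molecules moved apart. Jam2, whose protein binds that of Jam3, had 97.3, 100.1 and 98.2 CPM in the SRF KO libraries and 129.7, 138 and 129 CPM in the WT libraries. No SRF KO library reached a WT library, and Jam2 had a log2 fold change of -0.42 (SE 0.05, adjusted p 3.7e-05). Jam3 was at 19.3, 19.3 and 19.3 CPM in the SRF KO libraries and 15.1, 14.6 and 15.7 CPM in the WT libraries, with every SRF KO library higher, and rose by 0.35 (SE 0.07, adjusted p 0.00169) on the log2 scale. The antisense gene Gm48796 covers 36.2% of the exon bases of Jam3 on the other strand, and whether counting used strand is not given in the sources used here. F11r, which encodes JAM-A of epithelia, was at 57.3, 54.4 and 56.0 CPM in the SRF KO libraries and 62.3, 62.0 and 61.0 CPM in the WT libraries. Its groups did not overlap but lay close, with a log2 fold change of -0.14 (SE 0.05, adjusted p 0.0364), and the call did not hold under most alternatives: the adjusted p was 0.0535 with RLE scaling, 0.114 with total counts alone, 0.0679 without the count filter, 0.105 under DESeq2, and 0.0563 to 0.143 when any library except WT replicate 2 was left out.

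Of the scaffolds, Tjp1 and Tjp3 differed sharply. Tjp1, the first zonula occludens protein described, was at 286, 292 and 280.2 CPM in the SRF KO libraries and 288, 314 and 283 CPM in the WT libraries. The groups overlapped and the log2 fold change was -0.04 (SE 0.05, adjusted p 0.546). Tjp3, the family member found mainly in epithelia, had 11.6, 10.3 and 12.1 CPM in the SRF KO libraries and 30.2, 27.6 and 33.8 CPM in the WT libraries. The groups were far apart, and Tjp3 fell to 37.1% of the WT level, with a log2 fold change of -1.43 (SE 0.09, adjusted p 3.9e-07). Cingulin (Cgn), which links scaffolds to actin and myosin, was at 50.1, 52.8 and 49.9 CPM in the SRF KO libraries and 70.1, 65.3 and 66.1 CPM in the WT libraries, with all WT libraries higher and a log2 fold change of -0.40 (SE 0.05, adjusted p 1.1e-04). Its relative paracingulin (Cgnl1) had 67.3, 70.9 and 64.0 CPM in the SRF KO libraries and 56.6, 57.8 and 55.3 CPM in the WT libraries. Here all SRF KO libraries were higher, with a log2 fold change of 0.25 (SE 0.05, adjusted p 0.00307).

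Of the apical polarity genes, Crb3, the small Crumbs protein of epithelia, fell and Pard3 rose. Crb3 was at 6.62, 7.37 and 7.95 CPM in the SRF KO libraries and 12.2, 12.9 and 15.3 CPM in the WT libraries, without overlap, and fell to 54.3% of the WT level, a log2 fold change of -0.88 (SE 0.11, adjusted p 6.2e-05). Pard3, the central scaffold of the Par complex, stood at 68.1, 65.1 and 67.0 CPM in the SRF KO libraries and 54.3, 57.7 and 51.4 CPM in the WT libraries. All SRF KO libraries were above all WT libraries, and the log2 fold change was 0.29 (SE 0.06, adjusted p 0.00146). Pard6b, an adaptor of the same complex, overlapped between groups at 28.3 ± 0.693 CPM in SRF KO against 30.6 ± 2.43 in WT (n = 3, SD) and did not pass, at -0.11 (SE 0.07, adjusted p 0.232). Without WT replicate 2 it passed, at -0.16 with an adjusted p of 0.0405. Inadl, the Crumbs complex scaffold now named Patj, was at 20.4 ± 0.260 CPM in SRF KO against 16.4 ± 0.127 in WT (n = 3, SD) and higher in every SRF KO library, with a log2 fold change of 0.31 (SE 0.07, adjusted p 0.0026).

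Ratios of relatives within a library do not depend on scaling. The ratio of Cgn to Cgnl1 counts was 0.744, 0.744 and 0.780 in the SRF KO libraries against 1.24, 1.13 and 1.20 in the WT libraries, and every WT library was above every SRF KO library. These ratios are not divided by exon length, so that they compare libraries and not the levels of the genes. Jam2 over Jam3 was 5.05, 5.19 and 5.08 and 8.60, 9.44 and 8.18, and Tjp3 over Tjp1 was 0.0404, 0.0354 and 0.0431 and 0.105, 0.0878 and 0.120, in the same order. Both ratios were lower in every SRF KO library. Cldn4 over Cldn6 was 0.956, 1.01 and 1.07 in SRF KO and 2.27, 2.16 and 2.13 in WT, and Cldn7 over Cldn6 was 0.240, 0.247 and 0.242 and 0.417, 0.387 and 0.377. For the neighbours Cldn3 and Cldn4 the ratio was 0.0358, 0.0329 and 0.0384 in SRF KO and 0.0439, 0.0368 and 0.0467 in WT, and these values overlapped. In exact two-sided permutation tests, 5 of the 6 ratios had p of 0.1, the smallest that 3 libraries against 3 allow, and Cldn3 over Cldn4 had 0.2; adjusted over the 6, these were 0.12 and 0.2, so that none could pass 0.05.

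**Figure D4:**
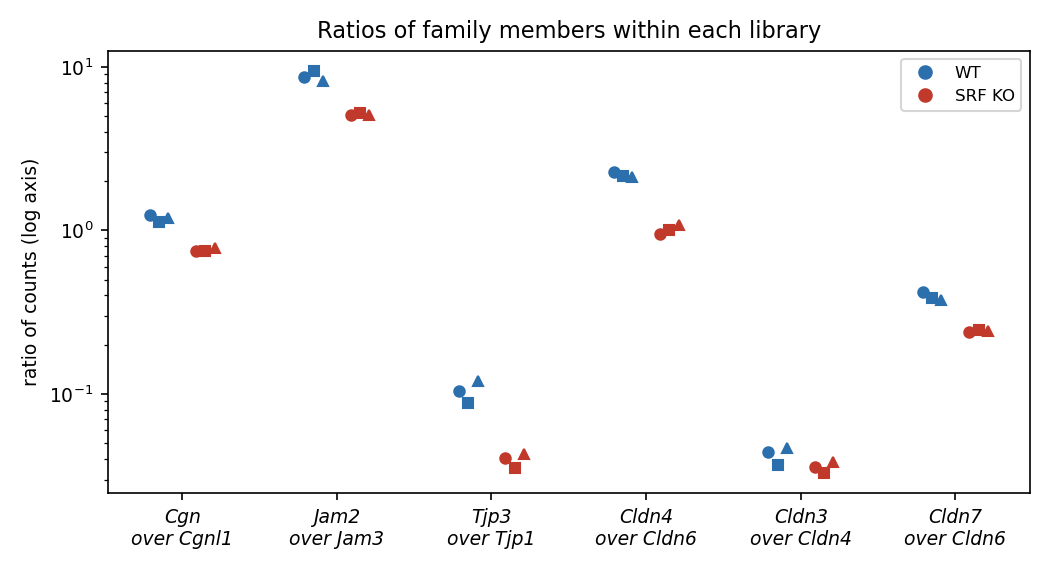
Ratio of counts between 2 members in each library, on a log axis; symbols are replicates 1, 2 and 3 (circle, square, triangle) and colours the groups. All WT libraries lie above all SRF KO libraries for each ratio except Cldn3 over Cldn4.

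A list of 45 further tight junction genes had 40 tested, 9 higher and 12 lower, where 21.2% and 21.3% of all genes were, with a median log2 fold change of -0.06, against -0.01 over all genes. The largest rise was that of Amot, angiomotin, a scaffold that binds Patj and holds Yap proteins in the cytoplasm. It went from 16.6 ± 0.800 to 214 ± 13.5 CPM (n = 3, SD), a log2 fold change of 3.69 (SE 0.07, adjusted p 5.8e-12). Crb2, a large Crumbs protein, and Esam, an adhesion molecule of endothelial cells, had log2 fold changes of 1.84 (SE 0.22, adjusted p 4.6e-05) and 1.12 (SE 0.12, adjusted p 1.8e-05). Crb3 fell while Crb2 rose, from 26, 14 and 33 counts in WT to 72, 80 and 87 in SRF KO. The falls were smaller: Prkcz, an atypical protein kinase C of the Par complex, at -0.48, the angiomotin relative Amotl2 at -0.42 and Arhgef18 at -0.39 (adjusted p 3.5e-04, 5.1e-05 and 2.2e-04). Epcam, the adhesion protein that Cldn7 binds, was chosen after its values were seen and had a log2 fold change of -0.31 (SE 0.05, adjusted p 5.5e-04).

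Regulators known to act on epithelial junction genes were described last. Of 6 repressors that favour a mesenchymal state, all 6 were higher in SRF KO, where 21.2% of all genes were, with a median log2 fold change of 0.95. Twist2 rose from 1.47 ± 0.478 to 4.12 ± 0.399 CPM and Snai2 from 1.54 ± 0.230 to 3.81 ± 0.438 CPM (n = 3, SD), with log2 fold changes of 1.46 (SE 0.20, adjusted p 1.2e-04) and 1.29 (SE 0.16, adjusted p 6.3e-05). Zeb2, a zinc finger repressor of E-cadherin and claudins, rose from 10.1 ± 0.312 to 19.8 ± 1.16 CPM (n = 3, SD), by 0.97 (SE 0.08, adjusted p 2.0e-06) on the log2 scale. These genes are also active in fibroblasts, whose 14 markers had a median log2 fold change of 1.11 and of which the 3 with the highest CPM were Bgn (1.19), Col1a1 (1.02) and Fbln2 (1.08). The part of such cells in the rise of the repressors was not tested. Of 10 genes that favour an epithelial state, 9 were tested, 1 was higher and 4 lower, where 42.4% of all genes passed in either direction, with a median of -0.27. Elf3, an epithelial Ets factor, fell from 64.0 ± 2.93 to 26.5 ± 0.494 CPM (n = 3, SD), a log2 fold change of -1.27 (SE 0.06, adjusted p 2.0e-08). Esrp1, an epithelial splicing regulator, went from 73.8 ± 3.50 to 36.8 ± 1.34 CPM (n = 3, SD, adjusted p 1.3e-07), and Grhl1, a Grainyhead-like factor, had a log2 fold change of -0.84 (SE 0.09, adjusted p 1.5e-05). Klf5, a zinc finger factor of pluripotent and trophectoderm cells, rose by 0.33 (SE 0.06, adjusted p 7.8e-04).

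**Figure D5:**
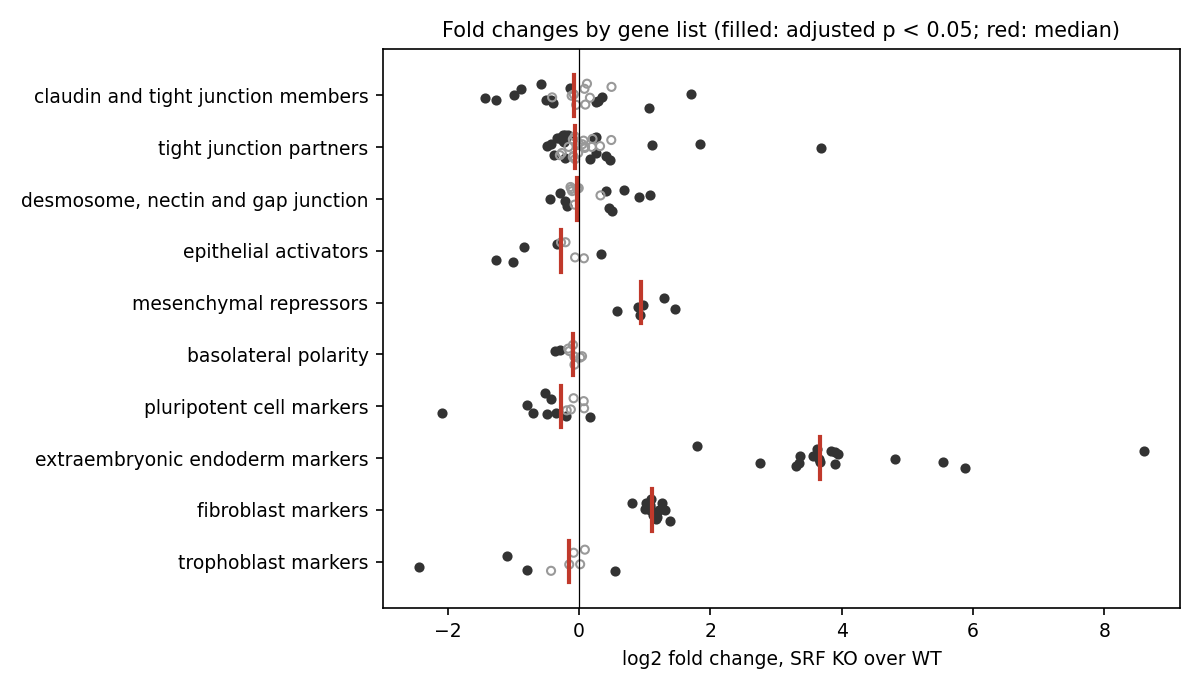
Log2 fold change of every tested gene of each list, SRF KO over WT; filled points passed an adjusted p of 0.05, open points did not, and red lines are medians. The members centre on -0.08 with points on both sides, the 6 repressors all lie above 0, and the endoderm markers centre on 3.68; the point farthest to the right is Ttr, listed at 0 in WT, whose fitted value is no bound, and the median with Ttr at its bound was again 3.68.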

How the data were processed

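Total RNA of 6 mouse iPSC libraries, 3 SRF KO and 3 WT, was sequenced as paired reads of 150 bp, per the labels' protocols, after the authors had taken out adaptors and poor or empty reads. The deposited table holds whole-number counts per gene and transposable element subfamily without normalization, judged from its values. The submitters' processing notes name mm10 and DESeq2. Aligner, counting program, annotation and strand are not given in the sources used here. Columns were matched to samples by name.

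All rows were fitted together in R 4.3.3 with edgeR 4.0.16: filterByExpr (minimum count 10), TMM scaling and the quasi-likelihood test, SRF KO against WT, with Benjamini-Hochberg adjustment and a threshold of 0.05. SE is the log2 fold change divided by the root of F. Levels per kb used GENCODE M21 exon lengths (GRCm38). Simulated data with 15472 features and 198 changed by 1 on the log2 scale gave 96.0% recovery and 3.55% false calls. The simulation used a single level of spread for all features and few changed features, so these rates are not those of the calls reported here. With totals of 26321602 to 36680156 counts per library, a floor of 3 counts is 0.0818 to 0.114 CPM. Replicate pairs differed by more than sampling noise (chi-square per degree of freedom 1.83 to 15.5). Alternatives were RLE or total-count scaling, DESeq2 1.42.0, no filter, gene rows alone, a replicate block, stricter thresholds and each library left out.

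The members and lists were chosen with earlier results of these data known. Named were Srf, every member with a mean of 10 or more counts, up to 3 genes in each direction per list of related genes (past the threshold, mean of 50 or more counts, largest change), and the 3 markers with the highest CPM per list; other names were chosen after their values were seen. Those markers not named elsewhere were, with log2 fold changes, Dppa5a (-0.42) and Tdgf1 (-0.20) for pluripotent cells, Sparc (1.80), Col4a1 (3.36) and Lama1 (2.76) for extraembryonic endoderm, and Tead4 (-0.15) and Eomes (0.09) for trophoblast. Tfap2c, named above for trophoblast, had -1.10.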

Additional observations from a re-analysis of the deposited data

How the results depend on the processing

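Over 58 single genes, 719 of 754 comparisons with an alternative kept direction and call, 29 lost the call, 4 gained it and 2 changed sign. Genes of the related lists were named because they had passed the threshold with a large change, which favours keeping the call. For the members alone, 273 of 299 comparisons kept direction and call, 22 lost the call, 2 gained it and 2 changed sign. The sign changes were those of Cldn5 without SRF KO replicate 3 (-0.13) and Tjp1 without WT replicate 2 (0.0077), neither past the threshold; with each library left out, Cldn5 ranged from -0.13 to 0.33 and Tjp1 from -0.073 to 0.0077. Cldn3, Cldn4, Cldn7, Tjp3, Crb3, Cgn and Jam2 stayed lower and past the threshold under each other scaling, tool, filter and design run, at an adjusted p of 0.01 and with each library left out; of these, only Cldn3 and Tjp3 also passed a log2 fold change of at least 1. A log2 fold change of at least 1 left 2 members higher and 2 lower, 1 claudin lower, 0 other members higher and 1 lower, and 817 genes higher and 260 lower; a mean of 50 or more counts left 3 members and 0 claudins higher. Such thresholds lower counts by construction. An adjusted p of 0.01 left 1 claudin higher and 2013 genes lower, and DESeq2 left 1 claudin higher. When one library was left out, the claudins higher were 1 to 2 (1 without SRF KO replicate 1 or 3, or WT replicate 2), the claudins lower 3, the members higher 4 to 5 and lower 7 to 10, the other members higher 3 and lower 4 to 7, and the ratio of summed claudin levels 0.706 to 0.785. In the main fit the claudins higher were Cldn2 and Cldn15, which passed the filter on low counts only through SRF KO. Without WT replicate 3, Cldn6 passed the test and Cldn15 did not. With the replicate block, 5 members were higher and 9 lower, as without it, and 3659 genes were higher and 3853 lower. Same-numbered libraries had deviations correlated at 0.0424, 0.203 and 0.0965, so that the numbers were not taken to pair them. Depth limits Cldn2, Cldn5, Cldn15 and Cldn19, which had at most 27 counts in any library.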

Other observations

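Other junction genes were described by their own lists. Of 18 desmosome, nectin and gap junction genes, SRF KO had 6 of the 17 tested higher and 4 lower, where 21.2% and 21.3% of all genes were, with a median log2 fold change of -0.03. Perp, a membrane protein of desmosomes, rose from 23.9 ± 1.07 to 45.0 ± 1.83 CPM (n = 3, SD), a log2 fold change of 0.91 (SE 0.06, adjusted p 6.5e-07) by edgeR. Pvrl1, the older symbol of nectin gene Nectin1, and Gja1, a connexin of gap junctions, had log2 fold changes of 0.69 and 0.50. Among the falls, Pkp2, a plakophilin that links desmosomes to intermediate filaments, was at -0.44, Mllt4, the older symbol of afadin, which ties nectins to actin, at -0.29 and the plakophilin Pkp4 at -0.22. Gjb2, named after its values were seen and under a mean of 50 counts, had 44, 30 and 46 counts in SRF KO and 23, 19 and 20 in WT, a log2 fold change of 1.08 (SE 0.22, adjusted p 0.00209) by edgeR.

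Of 9 basolateral polarity genes, all tested, 2 passed at an adjusted p under 0.05 by edgeR, both lower, where 42.4% of all genes passed and 21.3% as lower, and the median log2 fold change was -0.09. Dlg3, a membrane-associated scaffold, and Llgl2, a giant larvae homologue, had log2 fold changes of -0.37 (SE 0.06, adjusted p 3.7e-04) and -0.29 (SE 0.09, adjusted p 0.0205) by edgeR. The call of Llgl2 was lost without SRF KO replicate 2 (-0.24) or 3 (-0.29), or WT replicate 1 (-0.26) or 3 (-0.20).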
